A study of Homo sapiens with 14 samples.

Results

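RING1B binding was mapped by chromatin immunoprecipitation followed by sequencing (ChIP-seq) in DU145 cells, a human line derived from prostate cancer. A pair of lists of RING1B peaks were set against each other, 1739 peaks from cells with a stable knockdown of EED and 5155 peaks from control cells that carried a scramble construct, 6894 in all of the 227479 peaks in the 14 lists of the series. All peaks of both RING1B lists were taken, with no selection on their values. Both kinds of cells had been selected with puromycin, and both libraries were made with the same lot of a rabbit antibody. The other 12 lists, from RING1A, BMI1, H3K27me3, EED and 2 antibodies against ubiquitylated histone H2A (uH2A, rabbit and mouse) in the same pair of cell lines, are used below as partners. Each group is 1 library, so no difference has a replicate check, no p-value is given, and every interval is a 95% interval for counting error that treats peaks as independent. A single knockdown construct is named in the titles, which means that what it does through EED and what it does otherwise cannot be told apart. EED expression was not measured in these files; the EED antibody itself listed 1372 knockdown and 13082 control peaks.

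RING1B, together with its paralogue RING1A, is the ubiquitin ligase at the core of Polycomb repressive complex PRC1, and it places ubiquitin on histone H2A. BMI1 is a partner subunit that stimulates the ligase. EED belongs to the other Polycomb complex, PRC2, where it is needed for methylation of histone H3 to H3K27me3. Canonical PRC1 complexes carry chromobox proteins that dock on H3K27me3, while variant PRC1 complexes reach chromatin without that mark. The classical targets of both complexes are silent developmental genes such as the HOX clusters.

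The RING1B lists were checked first against such targets. In windows placed around the 4 HOX clusters the control list held no RING1B peak. The knockdown list held 1, of 125 bp on chromosome 7 at 27102026 to 27102150, in the HOXA window. Its listed height of 22 was below the median of 30 of that list, and whether it lay among the HOXA genes was not determined. There were also 0 RING1B peaks in either cell line at the forkhead clusters FOXQ1-FOXF2-FOXC1 and FOXF1-FOXC2-FOXL1, at RBFOX3, at PAX2-TLX1-LBX1 and at the kallikreins. These places were not empty in every other list. The HOXA window had 0 knockdown and 26 control peaks of RING1A and 0 knockdown and 12 control peaks of H3K27me3, and the window of RBFOX3, a neuronal splicing regulator, had 0 knockdown and 319 control peaks of H3K27me3 and 0 knockdown and 19 control peaks of RING1A. BMI1 was sparse as well, with at most 5 control peaks in a window (FOXQ1-FOXF2-FOXC1), 3 at HOXA and 2 at RBFOX3. It had 0 in either cell line at HOXB, HOXD and the kallikreins, and RING1A had 0 in either at HOXD and the kallikreins. The windows of these loci were placed on hg19 from general knowledge, with no annotation file of that build. A list holds only peaks that passed the caller, so a missing peak does not show that RING1B was absent.

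Most broad H3K27me3 domains also held no RING1B peak. In 529 windows of 100 kb at least 5 kb was covered by control H3K27me3 peaks. RING1B peaks were present in 33 of them in knockdown cells (6.24%) and in 89 in control cells (16.8%). In control cells RING1A reached 411 of these windows, EED 320 and BMI1 274. Of the 496 windows that lay away from centromeres and from the high-signal windows defined below, 17 held a knockdown and 69 a control RING1B peak. Counted by peaks, 34.9% of knockdown and 18.6% of control RING1B peaks lay in these 529 windows, more than of any other list in each kind of cells except the control H3K27me3 list (42.3%). RING1B peaks thus crowded into a small number of these windows and left most without one. They are called RING1B peaks by the antibody's label.

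A large share of RING1B peaks lay near centromeres, and few stretches of the genome held much of either list. Within 5 Mb of a centromere gap of the assembly lay 45.0% of knockdown and 41.0% of control RING1B peaks. The shares for the other control lists were 5.45% for H3K27me3, 6.10% for uH2A rabbit, 8.12% for uH2A mouse, 9.97% for EED, 12.1% for RING1A and 21.1% for BMI1, all below that of RING1B. For the other knockdown lists they were 45.2% for H3K27me3, 39.02% for RING1A, 37.0% for BMI1, 23.8% for EED, 13.003% for uH2A mouse and 6.24% for uH2A rabbit. Gaps were placed at their approximate hg19 positions from general knowledge, and 0 peaks of any of the 14 lists fell inside one. Distance was taken to centromere gaps only, and other gaps of the assembly were not considered. Dense control clusters on chromosome 16 at 46386876 to 46435450 and chromosome Y at 58820776 to 58915725 thus count as beyond 5 Mb, at 8052 and 45717 kb. So does a cluster of 46 control peaks on chromosome 1 at 148891076 to 148951075, at 24356 kb. The 10 windows of 1 Mb with the most peaks held 40.1% of the knockdown list and 27.7% of the control list. Such places include repeats to which reads are hard to assign. Without an input library in this comparison, signal that any antibody would give cannot be told apart from RING1B binding there.

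Every peak on chromosomes 22, X and Y was listed with a height of 0 and an offset of 1, and no peak on another chromosome was. This held for 392 of 392 knockdown and 633 of 633 control RING1B peaks, and equally in the lists of RING1A, BMI1 and H3K27me3. A height of 0 thus marks the chromosome and not a weak peak, and these peaks are counted apart in the ratios, height classes and medians of height. Cuts by height below are the exception, as a height of 0 ranked lowest in them. The cut at the control median height dropped chromosomes 22, X and Y from both lists. The cut to the tallest control peaks dropped them from the control list, while all 392 knockdown peaks stayed.

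Knockdown cells had fewer RING1B peaks. The ratio of 1739 knockdown to 5155 control peaks was 0.337 (exact interval 0.319 to 0.356). Peaks with a height numbered 1347 in knockdown and 4522 in control cells, a ratio of 0.298 (0.280 to 0.317). Those on chromosomes 22, X and Y, without a height, numbered 392 and 633, a ratio of 0.619 (0.545 to 0.704). The length covered was 371 kb in knockdown and 1077 kb in control cells, a ratio of 0.344. The 2 lists did not start at the same height, with a lowest listed height of 16 in knockdown and 38 in control cells and a median of 30 and 64.6 over peaks with a height. Heights are the authors' own values, read totals were not at hand, and the part of depth or of the caller's cutoff in the ratio was not tested. The control median used as a cut here and below was taken over all 5155 peaks, heights of 0 included, and was below 64.6. When both lists were limited to heights at or above it, without scaling between libraries, 288 knockdown and 2599 control peaks remained. Their ratio was 0.111, without chromosomes 22, X and Y.

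Peak lengths were alike in the 2 lists. The median was 150 bp in both, the upper quartile 250 bp in knockdown and 225 bp in control cells, and the mean 213 and 209 bp. The shortest length listed, 75 bp, accounted for 15.8% of knockdown and 15.9% of control peaks. Peaks of at least 1000 bp numbered 20 in knockdown cells, of which 19 lay on a control peak, and 59 in control cells, of which 46 were kept. The longest knockdown peak had 3150 bp and the longest control peak 4275 bp.

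A control peak is called kept where it shared at least 1 bp with a knockdown RING1B peak and lost otherwise, and a knockdown peak that met no control peak is called new. By this rule 1065 of 5155 control peaks were kept, 20.7% (Clopper-Pearson interval 19.6 to 21.8), and 4090 were lost. With the control list reduced to its 1739 tallest peaks the kept share was 39.3%, and among peaks of either list at or above the control median height it was 9.47%, so the share depends on the length of the lists and the heights in them. The same rule kept 10.9% of the control peaks of the 6 other antibodies pooled, a figure that the long RING1A list (4.07% kept) and the H3K27me3 list (3.81%) pull down. The uH2A rabbit list kept 28.8%, BMI1 21.1%, uH2A mouse 10.7% and EED 5.79%, so RING1B lay within their range. In the other direction 1112 of 1739 knockdown peaks lay on a control peak, 63.9% (61.6 to 66.2), against 61.1% over the other 6 antibodies, and 627 were new. Pairing was mostly simple, with 929 pairs of 1 knockdown and 1 control peak, 66 control peaks that met more than 1 knockdown peak and 35 knockdown peaks that met more than 1 control peak.

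Most kept sites were narrower in knockdown cells. Among the 929 pairs the median length was 175 bp in knockdown and 225 bp in control cells. The knockdown peak was the shorter in 556 pairs, 59.8%, and the longer in 286, and the bounds were identical in 36. In 723 pairs both peaks had a height, with a median of 32.0 in knockdown and 112 in control cells. The listed height was lower in knockdown cells in 672 of them, but heights were not scaled between libraries, so this difference is not a measure of binding. The order of heights was partly shared, with a Spearman coefficient of 0.625 over the 723 sites, which share the 2 libraries and many of which are neighbours.

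**Figure D1:**
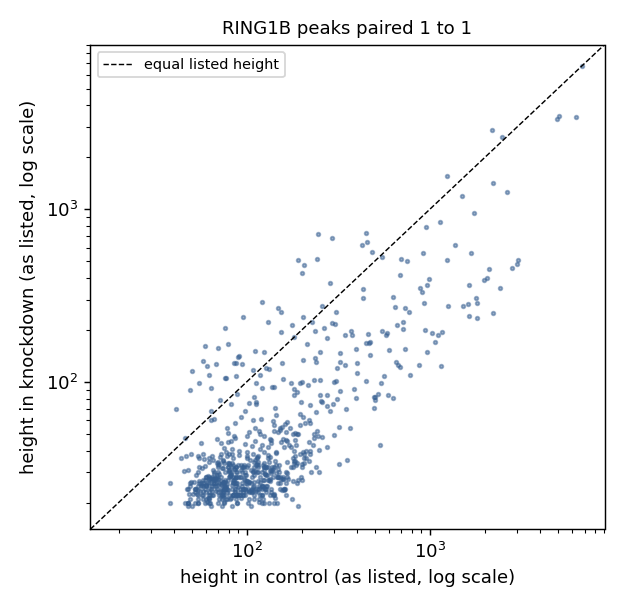
Listed heights of 723 RING1B sites with 1 knockdown and 1 control peak, knockdown on the vertical and control on the horizontal axis, both on log scales. Each point is a site, the dashed line marks equal listed height, and 672 of 723 points lie below it.

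Tall and long control peaks were kept more often than low and short ones. In 4 equal classes of control height, with chromosomes 22, X and Y apart, 52.1% of the tallest class were kept (589 of 1131), then 12.3%, 5.58% and 4.07% (46 of 1131) of the lower classes. The chromosomes without heights kept 36.0% of 633. By length, 5.25% of the 819 peaks of 75 bp were kept, 24.3% of the 1186 peaks of 175 to 225 bp, and 78.0% of the 59 peaks of at least 1000 bp (65.3 to 87.7). Lost peaks had a median length of 150 bp and a median height of 61.0, and kept control peaks 250 bp and 119. A longer peak also has more positions at which it can meet another.

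**Figure D2:**
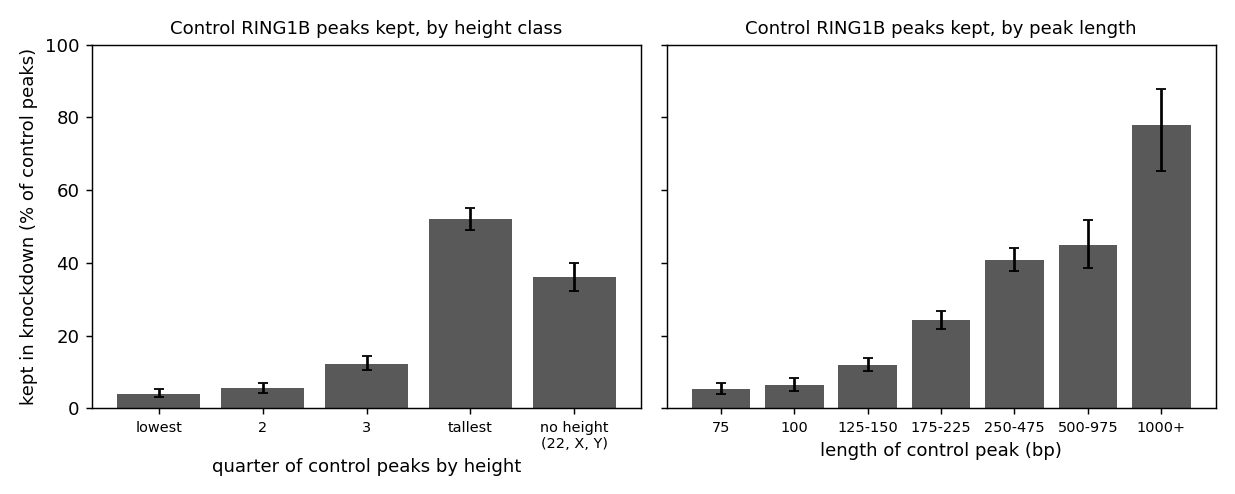
Share of control RING1B peaks kept in knockdown cells, in percent, by class of control height (left, with peaks of chromosomes 22, X and Y apart) and by length in bp (right). Bars are shares and whiskers 95% Clopper-Pearson intervals, and the share is highest in the tallest class (52.1%) and in peaks of at least 1000 bp (78.0%).

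Distances to the nearest peak of the other list were taken for lost and new peaks. The 2 sets cannot be compared, since lost peaks were measured to a list of 1739 peaks and new peaks to one of 5155, and 780 of the lost peaks lay on chromosome 14 with its 27 knockdown peaks. A lost control peak lay a median of 26.7 kb from the nearest knockdown RING1B peak, and 11.5% lay within 1 kb of one. More than 100 kb separated 1543 of the 4090 lost peaks (37.7%) from any knockdown peak on their chromosome. New peaks lay a median of 1.28 kb from the nearest control peak, 280 of 627 within 1 kb and 435 within 5 kb, while 105 (16.7%) were more than 100 kb away. New peaks were short, with a median of 125 bp, and their median height of 25.5 was below the 32.0 of knockdown peaks on a control peak.

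RING1B peaks were clustered in both lists. The median gap to the next peak of the same list was 1.44 kb in knockdown and 2.10 kb in control cells. When peaks no more than 5 kb apart were chained, 78.3% of knockdown peaks (76.2 to 80.2) and 75.4% of control peaks (74.2 to 76.6) belonged to a cluster of 2 or more. There were 192 clusters and 378 single peaks in knockdown cells, and 659 clusters and 1269 single peaks in control cells. Clusters of at least 10 peaks numbered 30 in knockdown cells and held 46.1% of the list, against 82 that held 38.9% in control cells.

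Clustered control peaks were kept more often, 963 of 3886 (24.8%), than single ones, 102 of 1269 (8.04%), 16.7 percentage points more (interval by Newcombe's method 14.6 to 18.7). The kept share was 10.9% in clusters of 2 to 4 peaks and 38.2% in clusters of at least 20. The difference was smaller among peaks of like height. Within the lowest height class the difference was 4.42 points (2.21 to 6.70), and within the tallest class 3.35 points (-6.60 to 13.2), an interval that includes 0. On chromosomes 22, X and Y, where height is not known, it was 30.4 points. Among peaks of both lists at or above the control median height it was 6.04 points, and with peaks within 1000 bp counted as kept 27.9 points.

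Control clusters outside high-signal windows differed widely in how many peaks were kept. A 100-kb window was called high-signal where 2 or more of the 6 other antibodies had a peak exceeding its library's median height more than 10 times, and both adjoining windows were added. On chromosomes 22, X and Y the lists without heights there could not mark a window. The cluster with most peaks outside them, on chromosome 15 at 20441201 to 20517075, had 6 knockdown and 88 control RING1B peaks over 75.9 kb. In the same stretch BMI1 had 87 knockdown and 87 control peaks, RING1A 71 and 55, and H3K27me3 59 and 1. RING1B was thus sparse there in knockdown cells while the other PRC1 antibodies listed as many peaks or more. A cluster on chromosome 2 at 91742551 to 91820850 had 12 knockdown and 79 control RING1B peaks, with 75 and 73 of BMI1. On chromosome 21 at 11086801 to 11149475 there were 31 knockdown and 69 control RING1B peaks, with 58 and 4 of H3K27me3.

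A block on chromosome 8, at 86726526 to 86840800 and far from the centromere, held nearly as many peaks in both cell lines, with 66 in knockdown and 74 in control cells, of which 47 were kept. BMI1 had 96 knockdown and 69 control peaks in it and H3K27me3 138 and 44, whereas EED and both uH2A antibodies had 0 in either. The cluster on chromosome Y at 58820776 to 58915725 went the other way, with 133 knockdown and 63 control peaks and all 63 kept. BMI1 had 121 knockdown and 125 control peaks there, and H3K27me3 126 and 130. The knockdown RING1B peaks of this block covered 56275 bp of 97.5 kb, so an overlap of 1 bp with a control peak is easily met in it. The 2 other knockdown clusters with most peaks outside high-signal windows lay on chromosome X at 61682326 to 61723125, with 50 knockdown and 39 control peaks, and on chromosome Y at 59004101 to 59033100, with 35 and 28. A cluster on chromosome 19 at 36760126 to 36799850, singled out after its values were seen, had 0 knockdown and 62 control RING1B peaks, although it held 53 knockdown and 49 control peaks of BMI1. H3K27me3 had 43 knockdown and 0 control peaks there.

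**Figure D3:**
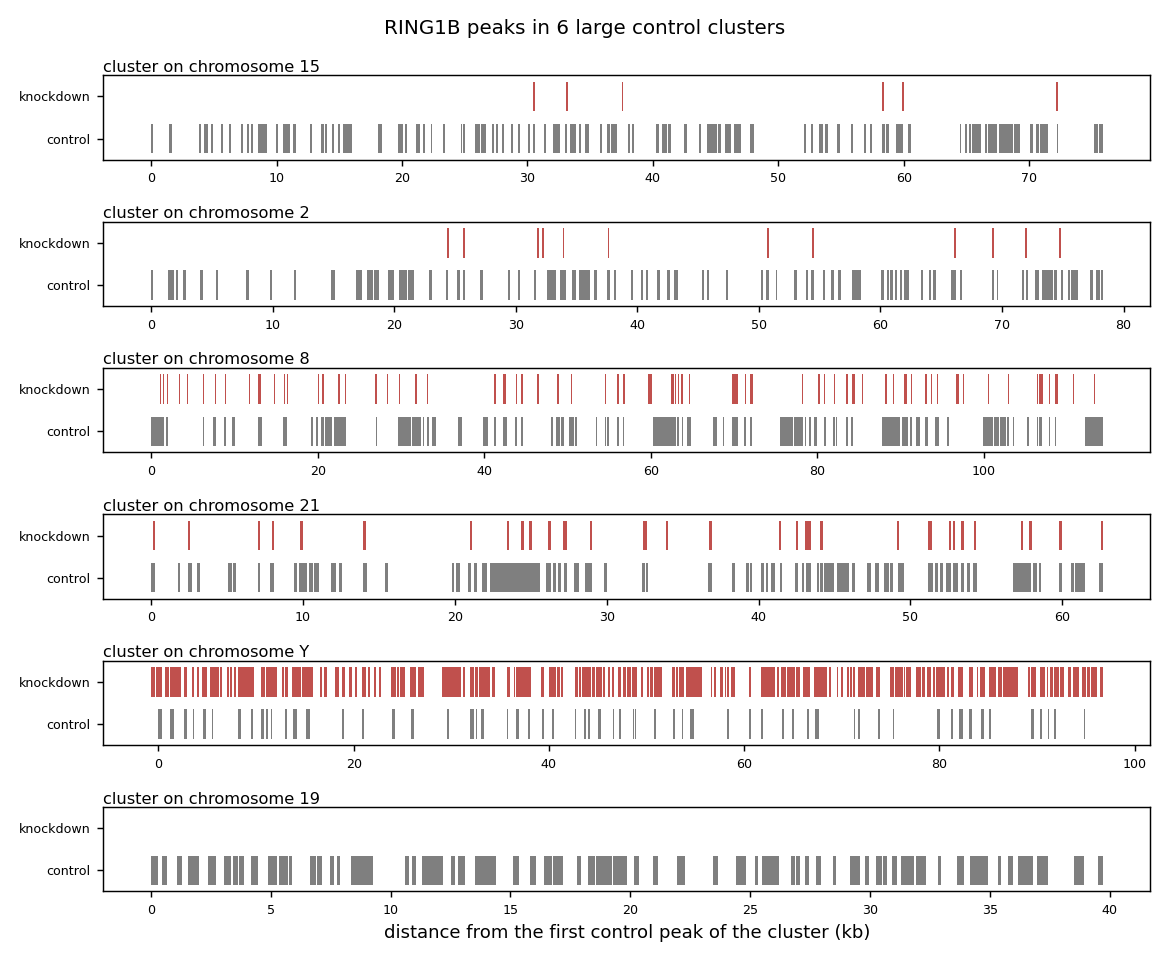
Positions of RING1B peaks in 6 large control clusters, as distance in kb from the first control peak of the cluster, with knockdown peaks in the upper and control peaks in the lower row of each panel. The chromosome 15 cluster has 6 knockdown against 88 control peaks, the chromosome Y cluster 133 against 63, and the chromosome 19 cluster 0 against 62. Knockdown peaks just beyond a cluster's bounds are drawn too.

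Chromosomes lost unequal shares of RING1B peaks. Chromosome 14 had 27 knockdown and 793 control peaks, a ratio of 0.0340 (0.0223 to 0.0499), and kept 13 of them (1.64%). It made up 1.55% of the knockdown and 15.4% of the control list. Chromosome 15 had 26 knockdown and 354 control peaks and kept 4.52%, chromosome 18 had 13 and 102 and kept 8.82%, and chromosome 22 had 31 and 230 and kept 8.70%. At the other end, chromosome Y had 268 knockdown and 260 control peaks, a ratio of 1.03 (0.866 to 1.23), of which 136 control peaks were kept and 138 knockdown peaks were new. A cluster at 58820026 to 58917525 held 139 of these knockdown peaks, 58 of them on a control peak, and 63 of the control peaks. The ratio thus does not describe the whole chromosome evenly. Kept shares comparable to the 52.3% of chromosome Y were found on chromosomes X (50.3%), 16 (49.6%) and 8 (48.4%). Dense clusters held much of them. On chromosome 16 the cluster at 46386876 to 46435450 held 56 of the 68 kept control peaks. On X, clusters at 61683226 to 61723125 and 58565901 to 58581950 held 37 and 26 of 72. On chromosome 8 the cluster at 86726526 to 86840800 held 47 of 88. Chromosome 13 had 0 knockdown and 6 control peaks. Chromosome 1 held the most control peaks, 812, with 281 in knockdown cells and 19.5% kept.

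**Figure D4:**
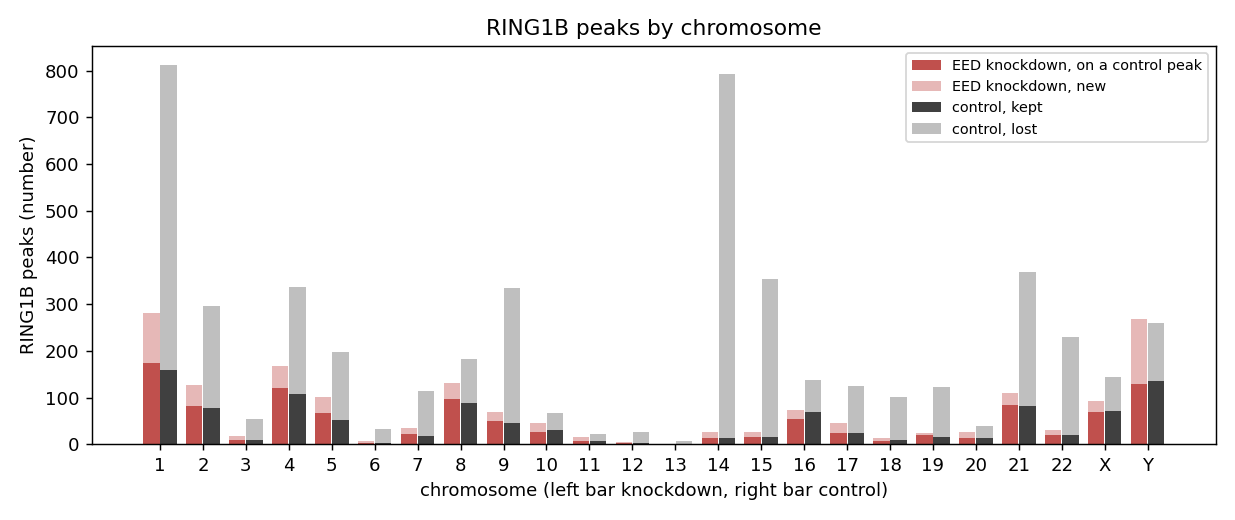
Number of RING1B peaks on each chromosome, with knockdown cells in the left bar and control cells in the right bar of each pair. Dark parts are knockdown peaks on a control peak and control peaks that were kept, pale parts are new and lost peaks; chromosome 14 has 27 knockdown against 793 control peaks and chromosome Y 268 against 260.

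The difference on chromosome 14 was not confined to its pericentromere. From 30 Mb onward the chromosome had 16 knockdown and 545 control RING1B peaks, a ratio of 0.0294 (0.0167 to 0.0481). The ratio of the whole RING1B lists was 0.337. For BMI1 the stretch had 440 knockdown and 2876 control peaks, a ratio of 0.153 (0.138 to 0.169) beside 0.301 for its whole lists. The other antibodies did not all move one way against their whole lists. Their ratios on the stretch were 0.0767 beside 0.0727 for RING1A, 0.0762 beside 0.119 for H3K27me3, 0.194 beside 0.105 for EED, 0.328 beside 0.418 for uH2A rabbit and 0.409 beside 0.211 for uH2A mouse. Its share of a control list ran from 4.60% for H3K27me3 to 13.8% for BMI1, so control libraries of all 7 antibodies listed many peaks on it. Copy number was not measured here, and its part in these counts was not tested. Of the 539 RING1B peaks lost from 30 Mb onward, 31.7% lay on a BMI1 peak in knockdown cells and 82.9% on one in control cells.

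Kept RING1B sites mostly carried H3K27me3, and lost sites mostly did not. Of the 1065 kept control peaks, 90.99% lay on a knockdown H3K27me3 peak and 68.5% on a control one. Of the 4090 lost peaks, 33.2% lay on a knockdown and 14.3% on a control H3K27me3 peak. Put the other way, RING1B peaks on control H3K27me3 were kept at 55.6% (730 of 1313) and the others at 8.72% (335 of 3842), a difference of 46.9 points (44.0 to 49.7). The difference was above 0 in each height class, from 13.03 points in the lowest (7.49 to 20.6) to 49.1 in the tallest (43.8 to 54.0), and in each of 5 length classes, from 25.2 to 55.7 points. More than 5 Mb from centromere gaps, a set that keeps dense blocks beside other gaps, it was 42.0 points. Outside high-signal windows it was 36.3 points, and among peaks of both lists at or above the control median height 26.8 points.

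RING1A and BMI1 peaks were listed in knockdown cells at many of the lost RING1B sites. At lost RING1B peaks, 55.7% met a BMI1 peak in knockdown cells (54.1 to 57.2) and 85.6% in control cells. For RING1A these shares were 43.5% (42.0 to 45.1) and 73.7%. Not all of these knockdown peaks had a control counterpart. A knockdown BMI1 peak lay at 62.5% of the 3500 lost sites with a control BMI1 peak and at 15.3% of the 590 without. A knockdown RING1A peak lay at 45.1% of the 3016 lost sites with a control RING1A peak and at 39.2% of the 1074 without. With the control list reduced to its 1739 tallest peaks, the knockdown shares at lost peaks were 86.3% for BMI1 and 80.2% for RING1A. With both RING1B lists limited to heights at or above the control median, they were 78.3% and 70.7%. Lost then meant meeting none of the 288 knockdown RING1B peaks that remained, so a lower knockdown RING1B peak could still lie there. The partner lists were not cut. A knockdown peak of RING1A or BMI1 was present at 2636 of the 4090 lost sites (64.4%), and both were present at 1422 (34.8%). None of the 6 partners had a knockdown peak at 1162 lost sites (28.4%), and none had a control peak at 306 (7.48%). At kept sites 93.2% had a knockdown peak of RING1A or BMI1. The knockdown RING1B list, with 1739 peaks, was shorter than those of BMI1 (6257) and RING1A (4072), and whether RING1B peaks at lost sites fell below the caller's cutoff was not tested.

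**Figure D5:**
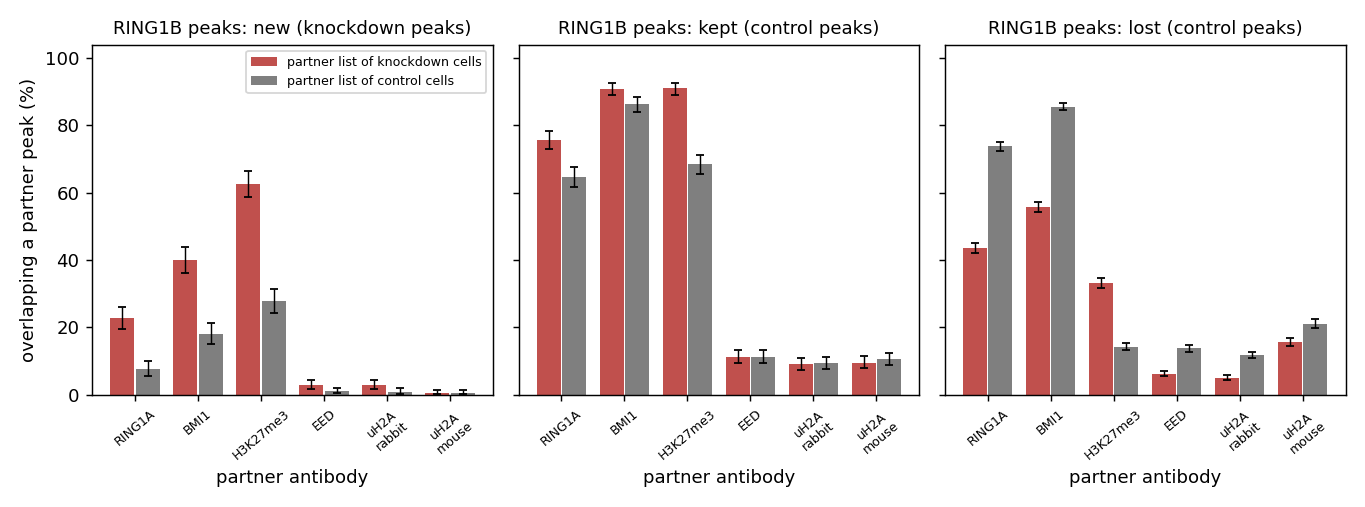
Share of new, kept and lost RING1B peaks that overlap a peak of each partner antibody, in percent, with the partner's knockdown list in the left and its control list in the right bar of each pair. Whiskers are 95% Clopper-Pearson intervals; at lost sites BMI1 peaks are present at 55.7% in knockdown and 85.6% in control cells, and at new sites H3K27me3 at 62.7% and 27.8%.

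Seen from the partners, each of the 6 other antibodies kept a larger share of its own control peaks where RING1B had a control peak, also at lost RING1B sites. BMI1 control peaks that touched a lost RING1B peak and no kept one were themselves kept at 62.0% (1993 of 3213), against 9.21% of the 16657 BMI1 peaks on no RING1B peak. For RING1A the shares were 46.5% (1268 of 2725) and 0.842% (443 of 52587). H3K27me3 peaks on lost RING1B sites were kept at 53.3% of 540, and those on no RING1B site at 1.02% of 34091. Partner peaks on RING1B sites were taller, with a median height of 98.0 on lost RING1B sites and 66.0 on none for BMI1. BMI1 and RING1A peaks were also longer, with medians of 225 and 250 bp on lost RING1B sites and 125 bp on none for each. H3K27me3 peaks had a median of 200 bp on both. A longer peak can meet another more easily, and the part of length in these shares was not tested. The tallest 25% of each partner's own control peaks were then taken, counting only peaks with a height. In this class BMI1 still differed, at 76.5% (74.6 to 78.4) on lost RING1B sites and 28.0% (26.1 to 29.98) on none. RING1A differed too, at 51.3% and 2.63%. For the rabbit uH2A antibody the shares were close in its tallest class, with 72.0% (65.2 to 78.1) on lost RING1B sites and 70.1% (68.9 to 71.2) on none.

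EED and uH2A peaks lay at a minority of kept and lost RING1B peaks. A knockdown EED peak lay at 11.1% of kept and 6.19% of lost sites, and a control EED peak at 11.2% and 13.7%. For uH2A rabbit the shares were 9.01% of kept and 5.01% of lost sites in knockdown cells, and 9.39% and 11.7% in control cells. The uH2A mouse mark was at 9.48% of kept and 15.5% of lost sites in knockdown cells, and at 10.4% and 21.1% in control cells, the last being above the 14.3% of lost sites with control H3K27me3. On chromosome 14 from 30 Mb onward it was more frequent, with a knockdown uH2A mouse peak at 43.4% of the lost RING1B peaks and a control one at 44.9%. These 3 antibodies form a library set that differs from that of RING1B in its culture description and chromosome naming, so the set and the antibodies cannot be told apart.

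New RING1B peaks lay on H3K27me3 and on PRC1 partners less often than the knockdown peaks that met a control peak. Of the 627, 62.7% lay on a knockdown H3K27me3 peak, against 89.6% of the 1112 others, and 27.8% lay on a control H3K27me3 peak, against 65.6%. The 62.7% combines 79.7% on chromosomes 22, X and Y with 56.3% elsewhere. BMI1 was at 40.0% of the new peaks in knockdown and 18.02% in control cells, and RING1A at 22.6% and 7.50%. At the 1112 others the knockdown BMI1 and RING1A lists had shares of 90.6% and 78.2%. EED and uH2A lay at no more than 2.71% in either cell line. New peaks fell on chromosomes 22, X and Y in 172 cases, of which 138 were on Y. Many of those on Y lay in the cluster at 58820026 to 58917525, where 58 of 139 knockdown peaks met a control peak.

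Single peaks were named by rule outside high-signal windows. The tallest kept control peak lay on chromosome 19 at 36066476 to 36066650, with a listed height of 43.2 in knockdown and 531 in control cells. The next were a 225-bp peak on chromosome 12 at 127650426 to 127650650 and a 1175-bp peak on chromosome 5 at 17517651 to 17518825, and 3 knockdown peaks met the longer of them. The fourth and the fifth lay on chromosome 1 at 228757976 to 228758450, inside a cluster of 50 control peaks, and on chromosome 7 at 56441101 to 56441550. All 5 carried RING1A and BMI1 in both cell lines and H3K27me3 in knockdown cells, and none carried EED or uH2A.

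The tallest lost peak, on chromosome 12 at 20704326 to 20704475, was 17172175 bp from any knockdown RING1B peak and had BMI1 in both cell lines. The second, on chromosome 6 at 119558526 to 119558625, met 1 control partner peak, of RING1A, and 0 knockdown ones. The third, on chromosome 5 at 178012451 to 178012675, had RING1A, BMI1 and H3K27me3 in both cell lines. The others, on chromosome 17 at 41400551 to 41400775 and chromosome 9 at 66486151 to 66486450, were 725 and 1425 bp from a knockdown RING1B peak. The peak on chromosome 17 carried EED and both uH2A antibodies in both cell lines.

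New peaks by the same rule all lay on H3K27me3 in knockdown cells. The tallest, on chromosome 18 at 18517001 to 18517175, was within 0.0570 Mb of the centromere gap. The next 3, on chromosome 5 at 49436526 to 49436775, 49439351 to 49439550 and 49429101 to 49429375, belonged to 1 knockdown cluster of 27 peaks beside its centromere gap. The fifth lay at the end of the short arm of chromosome 5, at 10351 to 10550. The 5 longest control peaks outside high-signal windows were on chromosomes 5 (34189351 to 34193625), 21 (11109126 to 11112425), 8 (86786801 to 86789575), 7 (56438176 to 56440750) and 4 (52826 to 55125). All were kept, but in pieces, with 6 knockdown peaks under the first and 2 or 3 under each of the others.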

How the data were processed

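ChIP DNA of 10 to 20 ng per library was sequenced with 40-nucleotide reads, per the labels' protocols. Alignment was to hg19 by Bowtie (submitters' processing notes, with no version stated). Whether peaks were called against an input is not stated either. The deposited lists bear the name of the HPeak caller, 1 list per library. They give chromosome, start, end, length and offset in bp, the height as a signal of unstated scale, and a negative score that the authors deposited without a definition and that was not used. Depth is unknown and the number of peaks limits precision.

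Numbers 23 and 24 in the lists of EED and uH2A were read as X and Y, an assumption. Overlap meant 1 bp or more. Intervals were exact conditional (ratios), Clopper-Pearson (shares) and Newcombe (differences). Alternatives varied the overlap, merging, minimum height, list size, cluster gap, chromosomes and windows. Overlap and clustering were tested on simulated lists. Outside high-signal windows, the rule named the 5 tallest kept, lost and new peaks, the 5 longest control peaks, and the 5 control and 3 knockdown clusters with most peaks. Peaks and lists were chosen with earlier results of these data known. Promoters and genes were not analysed here for lack of an hg19 annotation. Python 3.11.15, numpy 2.4.6, pandas 2.3.3, scipy 1.17.1 and matplotlib 3.10.9 were used.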

Additional observations from a re-analysis of the deposited data

How the results depend on the processing

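Of 78 recomputed values of 9 results, 28 stayed within the counting interval of the reported value (within 1.5 times for the 2 ratios of the lists) and 50 did not. A change of direction was defined only for the 2 differences in kept share, and 0 of their values changed sign. Peaks more than 5 Mb from a centromere gap and lists without chromosome 14 were alternatives chosen after seeing the data. The share of control peaks kept (20.7%) was 9.47% among peaks as tall as the control median or taller, 18.5% with heights above 0, 18.03% on autosomes, 16.2% outside high-signal windows, 15.98% with an overlap of at least 50%, 19.4% after merging peaks within 1000 bp, 29.7% when peaks within 1000 bp counted, 39.3% when the control list was reduced to its 1739 tallest peaks to give equal numbers, 18.6% away from centromere gaps and 24.1% without chromosome 14. In the tall peaks the knockdown-to-control ratio was 0.111 in number and 0.145 in length. The share of knockdown peaks on a control peak (63.9%) was 80.9% in tall peaks, 66.2% with heights above 0, 58.4% with the 50% overlap, 79.7% within 1000 bp and 60.1% outside high-signal windows. The clustered share of control peaks (75.4%) was 76.9% in tall peaks, 74.2% on autosomes, 72.4% outside high-signal windows, 79.01% with equal numbers, and 52.3% and 86.6% with gaps of 1000 bp and of 20 kb.

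Clustered control peaks were kept more often than single ones by 16.7 points. This was 6.04 in tall peaks, 14.4 with heights above 0, 13.997 on autosomes, 11.8 with the 50% overlap, 27.9 within 1000 bp, 13.3 outside high-signal windows and 13.7 with gaps of 1000 bp. The difference by control H3K27me3 (46.9 points) was 26.8 in tall peaks, 43.8 with heights above 0, 43.5 on autosomes, 43.6 with the 50% overlap, 51.97 within 1000 bp, 36.3 outside high-signal windows and 42.00 away from centromere gaps. For tall peaks both RING1B lists were cut, so a control peak called lost there could still meet a lower knockdown RING1B peak. The 50% overlap and the 1000-bp rule were applied to the partner peaks too. They thus also changed which RING1B peaks counted as on control H3K27me3 or on knockdown BMI1 or RING1A. The share of lost peaks with knockdown BMI1 (55.7%) was 78.3% in tall peaks, 49.7% after merging, 52.8% with the 50% overlap, 66.1% within 1000 bp, 86.3% with equal numbers, 50.8% away from centromere gaps and 58.6% without chromosome 14. With knockdown RING1A (43.5%) it was 70.7% in tall peaks, 40.03% after merging, 40.3% with the 50% overlap, 54.8% within 1000 bp, 80.2% with equal numbers and 41.00% away from centromere gaps. The cause of these shifts was not tested. Depth is unknown, and weak peaks are listed on different scales in the libraries. No paired analysis was possible because each group has 1 library, and no library could be left out.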
